A study of Mus musculus with 48 samples.

Results

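Cells in which the homeobox gene Otx2 was detected were set against cells in which it was not, among 48 single mouse cells sequenced after induction of Mesp1. The cells were chosen by their own Otx2 value: a cell was Otx2-positive at 1 FPKM or more (fragments scaled to transcript length and library size) and Otx2-negative below it. This rule put 24 cells on each side, so that all 48 cells were used. All cells came from 1 group: embryonic stem cells of strain 129P2/OlaHsd with a doxycycline-inducible Mesp1, grown as embryoid bodies for 4 days, given 500 ng/ml doxycycline between days 2.25 and 3.25 to switch on Mesp1, sorted as propidium iodide-negative and captured on a Fluidigm C1 device. Every cell received doxycycline, no uninduced cells were analysed here, and the labels name neither clones nor separate cultures. The cells were therefore treated as 1 sample and described without tests.

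Otx2 encodes a paired-type, bicoid-class homeodomain protein. In the mouse embryo it is transcribed throughout the epiblast before gastrulation, becomes restricted to the anterior side, and is needed in the anterior visceral endoderm and anterior mesendoderm for head formation. These anterior tissues secrete antagonists of Nodal, WNT and BMP signals, whereas WNT, FGF and retinoic acid signals from the primitive streak and its descendants favour posterior fates. Mesp1, a basic helix-loop-helix factor, marks nascent mesoderm that leaves the streak.

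Otx2 (ENSMUSG00000021848.16, GRCm38 chr14:48657677-48673819, minus strand) ranged in the positive cells from 2.69 to 191 FPKM, with a median of 38.3 and quartiles of 9.63 and 72.8. It reached 10 FPKM in 17 of these cells and 100 FPKM in 4. Of the negative cells, 21 were listed at 0 and the other 3 held 0.218, 0.391 and 0.862 FPKM. The values nearest the threshold on the positive side were 2.69, 2.73 and 3.52 FPKM, so no cell lay between 0.862 and 2.69. Otx2 chose the cells, and its own difference is not a result.

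**Figure D1:**
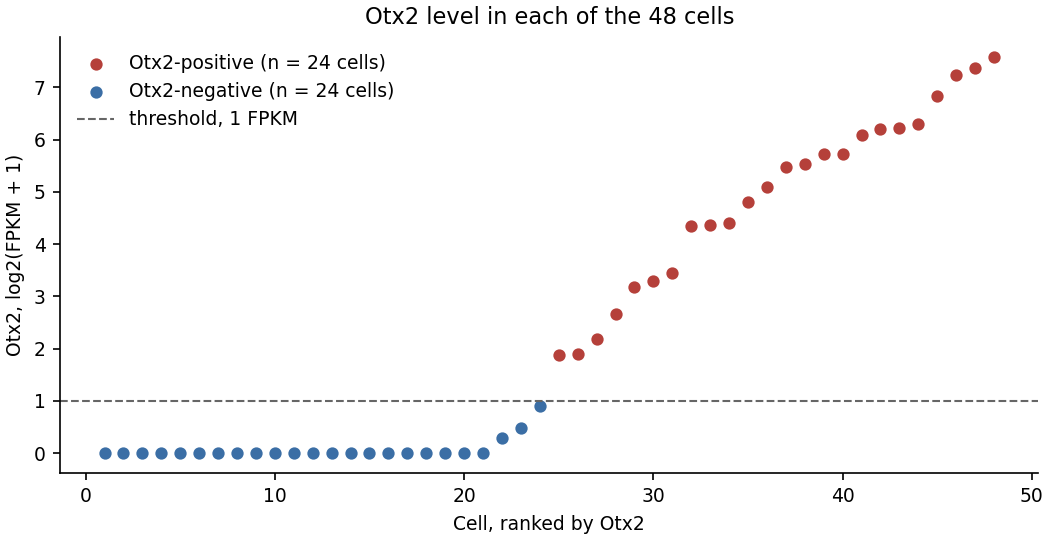
Otx2 in each of the 48 cells as log2(FPKM + 1), ranked from lowest to highest, with each point 1 cell coloured by side and the dashed line at the threshold of 1 FPKM. The 24 positive cells spread continuously from 2.69 to 191 FPKM, and 21 of the 24 negative cells sit at 0.

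The labels call the cells mesoderm: over all 48 cells Eomes was detected in 35, the mesodermal receptor gene Pdgfra in 31, Mesp1 in 30, T in 26 and Kdr in 22, while the cardiac factor gene Nkx2-5 was in none. The sides were similar in several technical measures and differed in another. Genes detected per cell numbered 4788 to 7010 (median 6379.5) in positive cells and 4878 to 7002 (median 6204.5) in negative cells. Label numbers up to 48 were held by 13 positive and 12 negative cells. Short RNAs, whose FPKM values can be inflated by length correction, made up more than 50% of the FPKM sum in 3 positive and 8 negative cells. Their part in the differences below was not tested, but the counts were recomputed without these cells. FPKM keeps no read counts, so the depth of each cell is unknown.

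Among genes detected at 1 FPKM or more in at least 5 of the 48 cells, 10597 besides Otx2 could be compared. The measure was the difference in mean log2(FPKM + 1), positive minus negative cells, and a difference of 1 (2-fold) served as a size rule, not as a test. By this rule 339 genes (3.2%) were higher and 198 (1.87%) lower in Otx2-positive cells. The median difference over all compared genes was 0.05, and the central 90% ran from -0.73 to 0.87. The share of all genes with a difference above 0 was not counted. Counts of signs in the lists below have only the median of 0.05 beside them. After regression on the number of genes detected per cell the counts were 261 and 231.

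The largest differences in favour of Otx2-positive cells were those of Cer1, Car4, Tdgf1, Trh and Eomes. The 15 highest genes held 3 secreted antagonists (Cer1, Frzb and Sfrp1) and 2 further genes of the streak list (Tdgf1 and Eomes), and the other 10 belonged to neither group. The genes most in favour of Otx2-negative cells included Pmp22, Bmp4, Rgs5 and Gata2. Both sides overlapped in all 15 genes at each end. Single cells varied widely: in only 3 of the 15 highest genes (Car4, Eomes and Emb) and 2 of the 15 lowest (Pmp22 and 2700099C18Rik) was the difference larger than the cell-to-cell SD on both sides, SDs that ran from 0.93 to 3.98 on the log2 scale.

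Cer1 (chr4:82881751-82885148, minus strand) encodes Cerberus-like 1, a secreted inhibitor of Nodal, BMP and WNT ligands. It ranged from 0 to 1435 FPKM in positive cells (median 22.4) and from 0 to 21.3 in negative cells (median 0). It was detected in 14 of 24 positive cells (58.3%, exact Clopper-Pearson 95% interval 36.6 to 77.9) and in 3 of 24 negative cells (12.5%, 2.66 to 32.4). All 9 cells at 100 FPKM or more were Otx2-positive, yet 7 positive cells were listed at 0. The difference in mean log2 was 3.83, with SDs of 3.98 and 1.03. Intervals here and below cover counting error only, and not transcripts lost from a cell.

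Eomes (chr9:118478212-118486132, plus strand), a T-box factor of the streak and of definitive endoderm and cardiac mesoderm precursors, was detected in more cells on both sides than Cer1. Its level ran from 0 to 211 FPKM in positive cells with a median of 70.9, and from 0 to 76.8 in negative cells with a median of 3.07. It was detected in 22 positive and 13 negative cells, and the log2 difference was 3.18 (SDs 2.04 and 2.37). Only 6 cells, all positive, reached 100 FPKM. Over all 48 cells Eomes also had the rank order most like that of Otx2, with a Spearman correlation of 0.67 among 8335 genes. Emb, Fgf5, Sall4 and Rnf141 came next at 0.64, 0.58, 0.54 and 0.51. These cells share a device and a treatment, the correlations include the step that defines the sides, and they carry no test.

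Tdgf1, the Nodal co-receptor Cripto, was detected in 21 positive and 12 negative cells, at medians of 206 and 0.81 FPKM. Its highest cells were similar on both sides (1248 and 1033 FPKM), so the difference of 3.37 lay in the number of cells with a high value: 15 positive and 4 negative cells reached 100 FPKM. Trh, which encodes the precursor of thyrotropin-releasing hormone, was detected in 22 and 13 cells at medians of 151 and 15.2 FPKM (difference 3.19). The Trh difference was 1.38 in cells with label numbers up to 48 and 5.02 above 48. Car4, a membrane-anchored carbonic anhydrase, was detected in 19 and 6 cells (difference 3.52). Emb, the adhesion glycoprotein embigin, was detected in all 24 positive cells and 23 of 24 negative cells, at medians of 243 and 60.8 FPKM (difference 2.08).

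**Figure D2:**
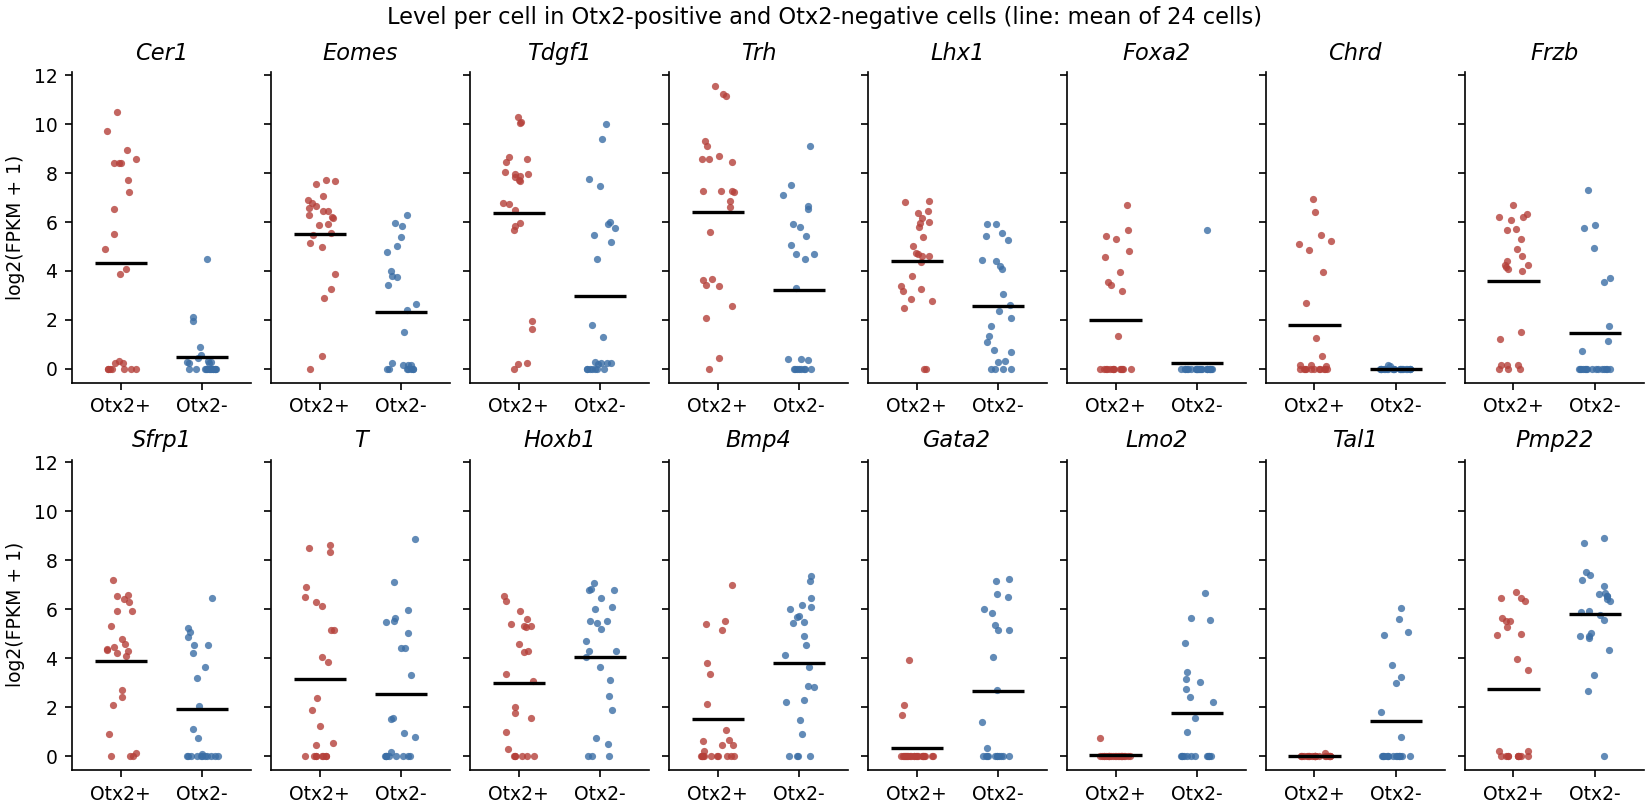
Level per cell, as log2(FPKM + 1), of 16 genes in the 24 Otx2-positive (left, red) and 24 Otx2-negative cells (right, blue), with horizontal lines at the means. Cer1, Foxa2 and Chrd have high values almost only among positive cells, Lmo2 and Tal1 only among negative cells, and T is spread over both.

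Of 22 anterior regulators, 16 passed the detection filter. Of these, 6 were 2-fold or more higher in Otx2-positive cells (against 3.2% of all compared genes), none was lower, and all 16 had a difference above 0 with a median of 0.89. The list was chosen with earlier results of these data known. Of the 6, Cer1, Foxa2 and Chrd were detected in fewer than 5 negative cells and so passed the filter only through the positive side. Gsc, Lefty2, Sfrp5, Otx1 and Nog, which were not past 2-fold, also passed only through that side. For such genes the filter favours a difference above 0. The 6 that did not pass were sparse: Six3 was detected in 4 positive cells and Hesx1 in 2, both in no negative cell, and Fezf1, Fezf2, Dmbx1 and Rax in none. A positive cell held a median of 8.5 of the 22 (range 3 to 12), and a negative cell a median of 4 (1 to 7).

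The transcription factors of the anterior list differed in how sharply they followed Otx2. Lhx1, a LIM homeodomain factor required for head organiser function, was detected in 22 positive and 16 negative cells, at medians of 23.9 and 3.67 FPKM (difference 1.84). Foxa2, the forkhead factor of node, axial mesendoderm and endoderm, was detected in 11 positive cells and 1 negative cell, which held 50.5 FPKM (difference 1.76). Gsc (Goosecoid), a homeobox gene of the organiser, was detected in 8 and 2 cells with a difference of 0.83, under the 2-fold size. Hhex, of anterior endoderm, was detected in 9 and 7 cells and had a difference of 0.17. Otx1 (0.27) was also under the size.

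Among the antagonists of the list, Cer1, Frzb and Sfrp1 had larger differences than Lhx1, and the others had smaller ones. Frzb and Sfrp1, which bind WNT ligands, had differences of 2.14 and 2.0 and were detected in 18 against 8 and 19 against 11 cells. Sfrp2, from the list of WNT antagonists, had a difference of 1.15, and all of Frzb, Sfrp1 and Sfrp2 were detected together in 14 positive and 3 negative cells. Chrd (Chordin), a BMP antagonist of the node, was detected in 9 positive cells with a highest value of 122 FPKM. In negative cells it was at or above 1 FPKM in 0 of 24, which allows a share of up to 12.5% by a limit of 3 counts (exact upper bound 14.2%). Its difference of 1.78 was 0.67 at an Otx2 threshold of 10 FPKM and 0.93 in label numbers up to 48, so it was not past 2-fold there. Shisa2 (0.95), Dkk1 (0.71), Nog (0.43), Lefty2 (0.98), Lefty1 (0.42) and Sfrp5 (0.09) did not reach 2-fold.

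Posterior regulators had differences on both sides of 0. Of 21 members 14 passed the filter, none was 2-fold or more lower in Otx2-positive cells, and Fgf8 was higher (against 3.2% of all genes). With 1.87% of all genes lower, a count of 0 among 14 is near that share and says little about the list. The median difference was -0.15, with 5 members above 0 and 9 below. A positive cell held a median of 5 of the 21 (range 2 to 14) and a negative cell 6 (2 to 9). The 7 members below the filter, Cdx1, Cdx2, Cdx4, Wnt3a, Wnt8a, Fgf17 and Nkx1-2, were detected in 1 to 4 cells each.

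T (Brachyury), the T-box factor of the streak and notochord, was detected in 14 positive cells (58.3%, 36.6 to 77.9) and 12 negative cells (50%, 29.1 to 70.9). Its highest cells were alike, 396 and 473 FPKM, and the difference was 0.64. Fgf8, a ligand of the streak, was detected in 11 and 6 cells (difference 1.05, under 2-fold in 5 of 10 other settings), and Sp5, a WNT-responsive factor, in 15 and 8 (0.89). The largest differences toward negative cells were those of Msgn1, a factor of presomitic mesoderm, found in 1 and 4 cells (-0.80), the WNT agonist Rspo3 (-0.67) and the ligand Wnt5a (-0.63). Lef1, Wnt3, Evx1, Axin2, Tbx6, Gbx2, Sp8 and Wnt5b lay between -0.49 and 0.40.

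Hox genes, which set position along the trunk, were nearly silent beyond the first groups. Of 39, 28 were detected in no cell and 5 passed the filter. Hoxb1 was detected in 16 positive and 19 negative cells at medians of 8.23 and 21.7 FPKM, a difference of -1.06. It was the only 1 of the 5 past 2-fold, against 1.87% of all genes lower by that size. Hoxb3 (6 and 13 cells, -0.81), Hoxb2 (7 and 9, -0.43) and Hoxa2 (4 and 3, 0.25) did not reach 2-fold. At least 1 of Hoxb1, Hoxb2 and Hoxb3 was detected in 18 positive and 22 negative cells, so Otx2 and early Hoxb transcripts occurred in the same cells. Hoxb1 was under 2-fold in 4 of 10 other settings, with a weakest difference of -0.41. Cells with label numbers above 48 (-0.96) were among these settings.

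**Figure D3:**
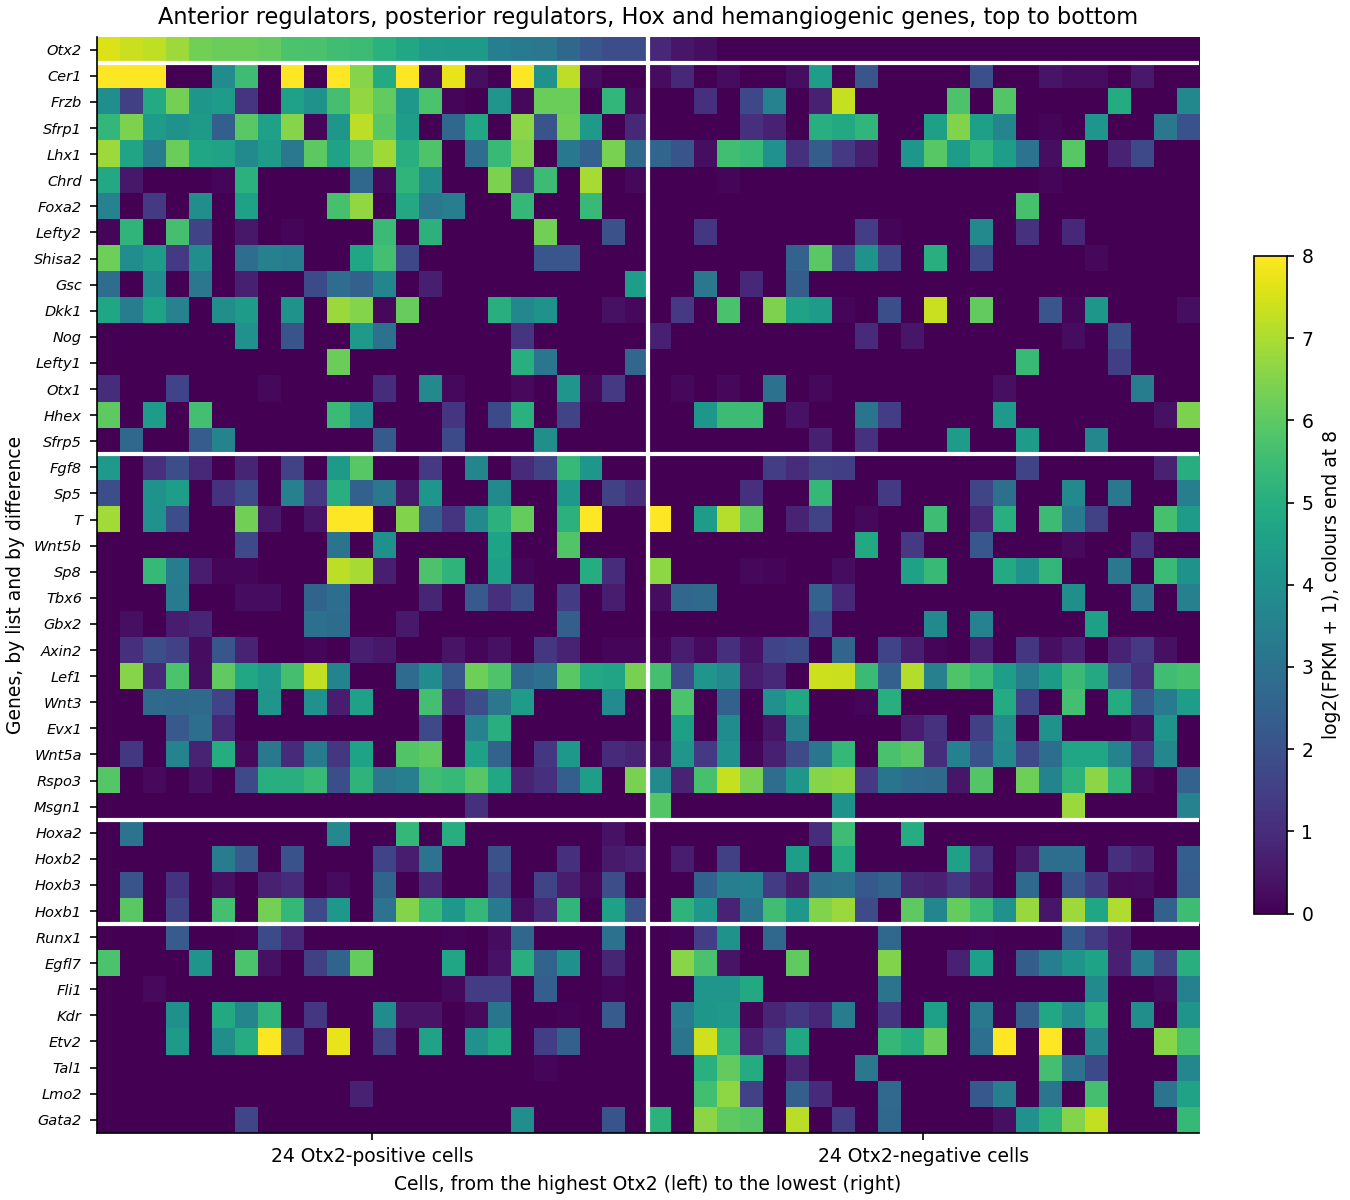
Level, as log2(FPKM + 1), of Otx2 (top row) and of members of 4 lists that passed the filter, apart from those not reported, in all 48 cells ordered from the highest Otx2 (left) to the lowest (right), with white lines between lists and sides. Cer1, Chrd and Foxa2 fill mainly the left, Gata2, Lmo2 and Tal1 the right, and T and the Hox genes are spread over both sides.

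Pairs of genes were counted within cells, chosen after their values were seen. Foxa2 occurred with T in 10 of its 11 positive cells, and the only negative cell with Foxa2 lacked T. This overlap was not particular to T: Pou5f1 was in all 11 of these positive cells, and Mixl1, Krt18 and Fgf5 in 10 each. Chrd occurred with T in 8 of its 9 cells. All 7 positive cells with both Foxa2 and Chrd also held T. Cer1 was found with T in 9 positive cells and 1 negative cell. At least 1 of Cer1, Foxa2, Chrd and Gsc was detected in 20 positive and 6 negative cells. Eomes and Lhx1 were found together in 21 positive and 10 negative cells.

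The Otx2-positive cells were themselves mixed. Splitting them by Cer1, also chosen after values were seen, gave 14 cells with Cer1 and 10 without. Trh was detected in 14 of 14 and 8 of 10 (medians 254 and 10.6 FPKM, difference 3.87), the WNT antagonist Dkk1 in 11 and 2 (2.85), Sfrp1 in 14 and 5 (2.72), and Fgf5 in 10 and 2 (2.37). In the other direction, Hand1, a factor of lateral and extraembryonic mesoderm, was detected in 4 of the cells with Cer1 and 7 of those without (difference -3.27). Evx1, of the posterior streak, was found in 0 of 14 and 5 of 10 cells (-1.48), Mesp2 in 1 and 5 (-1.86) and Snai1, a repressor of E-cadherin, in 7 and 7 (-2.01). Tdgf1 too had the lower mean in cells with Cer1 (-2.06), although both genes were higher in Otx2-positive cells as a whole. Posterior regulators lay on both sides of this split. T (9 of 14 and 5 of 10 cells, 1.56) and Fgf8 (7 and 4, 0.65) had higher means in cells with Cer1, and Wnt3 (-1.75) and Lef1 (-1.79) lower ones. These cells are few and carry no test.

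Several genes of the epiblast were higher in Otx2-positive cells. Of 18 pluripotency genes 17 passed the filter, 5 were 2-fold or more higher (3.2% of all compared genes), and all 17 differences were above 0 (median 0.68). Besides Tdgf1 these were Dppa5a (1.78), Nanog (1.55), the DNA methyltransferase Dnmt3b (1.15) and Pou5f1, which encodes Oct4 (1.15; 16 and 10 cells). Nanog was detected in 24 positive and 22 negative cells, at medians of 13.2 and 3.21 FPKM. Of 10 genes of primed epiblast, 8 passed, 2 of them with differences below 0, and 4 were 2-fold or more higher (again against 3.2%): Fgf5 (12 and 3 cells, 1.94), the zinc finger gene Zic5 (10 and 0 cells, 1.92), Sfrp2 and Dnmt3b. Fgf5 and Zic5 passed the filter only through the positive side. Of the 15 streak genes, which all passed the filter, 6 were 2-fold or more higher against the same 3.2%, Cer1 and Foxa2 only through the positive side. Mesp1 itself was detected in 16 positive and 14 negative cells with a difference of 0.32.

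Some epithelial genes were higher and a few mesenchymal genes lower in Otx2-positive cells. Of 10 epithelial genes 9 passed, 5 were 2-fold or more higher (3.2% of all compared genes) and all 9 differences were above 0 (median 1.26). The keratins Krt18 (1.90) and Krt8 (1.57), the tight junction gene Cldn6 (1.84), Epcam (13 and 4 cells, 1.79) and Cdh1, which encodes E-cadherin (12 and 6 cells, 1.26), made up the 5, of which Cldn6 and Epcam were in fewer than 5 negative cells. Of 13 mesenchymal genes 12 passed, and Twist1 (-1.29), Vim (-1.13) and Zeb1 (-1.08) were lower by 2-fold or more (1.87% of all genes). The other 9 were not, and the median was -0.54. Twist1 was under 2-fold at an Otx2 threshold of 10 FPKM (-0.79) and in label numbers above 48 (-0.52). Vim, an intermediate filament gene, was detected in 47 of 48 cells, at medians of 63.7 and 168 FPKM. Its difference was -0.03 in cells with label numbers up to 48 and -2.26 above 48. Cdh1 and Vim were detected in the same cell in 11 positive and 6 negative cells.

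Gata2, Lmo2, Tal1 and Etv2, regulators of early blood and endothelium, had lower means in Otx2-positive cells. Of 18 hemangiogenic genes 8 passed, 4 were 2-fold or more lower in positive cells (against 1.87% of all genes), and all 8 differences were below 0 (median -1.04). Gata2 (chr6:88193891-88207032, plus strand), a zinc finger factor of blood progenitors, was detected in 3 positive cells (12.5%, 2.66 to 32.4), at most at 14.1 FPKM, and in 12 negative cells (50%, 29.1 to 70.9), up to 152 FPKM. Lmo2 and Tal1, partners in a transcription factor complex of these lineages, were detected in 11 and 8 negative cells and in 0 of 24 positive cells, which allows a share of up to 12.5% by a limit of 3 counts (exact upper bound 14.2%). The differences were -2.33, -1.72 and -1.42, and these 3 genes passed the filter only through the negative side. So did Fli1 and Runx1, and for such genes the filter favours a difference below 0. Etv2, an ETS factor upstream of this programme, was detected in 12 and 14 cells (-1.16), so its transcripts were present on both sides. In negative cells Etv2 was found in 10 of the 11 cells with Lmo2.

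At least 1 of Gata2, Lmo2 and Tal1 was detected in 16 negative and 3 positive cells, and 2 or more of them in 9 of the negative cells. These 3 genes were chosen with their values known and passed the filter only through the negative side. Their joint counts therefore favour negative cells and add no separate result. The endothelial genes Cdh5 and Pecam1 were detected in no cell. Runx1 (4 and 6 cells, -0.17), Egfl7 (10 and 12, -0.49), Fli1 (3 and 6, -0.75) and Kdr, the VEGF receptor gene (8 and 14, -0.92), did not reach 2-fold.

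Of 12 BMP response genes 10 passed the filter, with 5 differences above 0 and 5 below (median -0.11), 1 gene 2-fold or more higher and 2 lower (3.2% and 1.87% of all genes). Bmp4, which encodes a BMP ligand, was detected in 8 positive cells (33.3%, 15.6 to 55.3) and 19 negative cells (79.2%, 57.8 to 92.9), at medians of 0.25 and 19.5 FPKM. Its highest values were alike, at 126 and 162 FPKM, and the difference was -2.31. It was -1.10 in cells with label numbers up to 48 and -3.55 above 48. The inhibitory Smad gene Smad7 was lower (13 and 22 cells, -1.25), though not past 2-fold at an Otx2 threshold of 10 FPKM (-0.63) or in label numbers above 48 (-0.79), while Id1, a BMP target, was just past the size in the other direction (1.0). Of 20 cardiac and lateral plate genes 16 passed the filter and only Bmp4 and Isl1 (-1.08) were past 2-fold, both lower (against 1.87% of all genes). Isl1 was under it in 3 of 10 other settings, with -0.56 without the cells over 50% short RNA. Gata4 (-0.07), Gata6 (0.63), Pdgfra (0.01) and Hand1 (-0.96) were not.

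In the retinoic acid pathway Aldh1a2, which makes retinoic acid, and Crabp2, which carries it, lay on opposite sides. Aldh1a2 was detected in 7 positive and 14 negative cells (-1.61), with a difference of -2.73 in cells with label numbers up to 48 and -0.35 above 48. Crabp2 was detected in 12 and 6 cells (1.92). Of 16 members 14 passed the filter, 1 was higher and 1 lower by 2-fold or more (3.2% and 1.87% of all genes). The other 12 did not reach 2-fold, among them Cyp26a1, which degrades retinoic acid (20 and 17 cells, 0.44). In the Nodal pathway 16 of 18 passed, and Cer1 and Tdgf1 were 2-fold or more higher (against 3.2% of all genes), Cer1 only through the positive side. None was lower by that size. Nodal itself was detected in 5 and 3 cells, and Foxh1, which encodes a transcription factor of the pathway, in 23 and 24. Among 17 FGF genes 13 passed, with Fgf5 and Fgf8 higher (against 3.2%) and Fgf15 lower (6 and 11 cells, -1.83, against 1.87%). Fgf5 passed the filter only through the positive side.

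**Figure D4:**
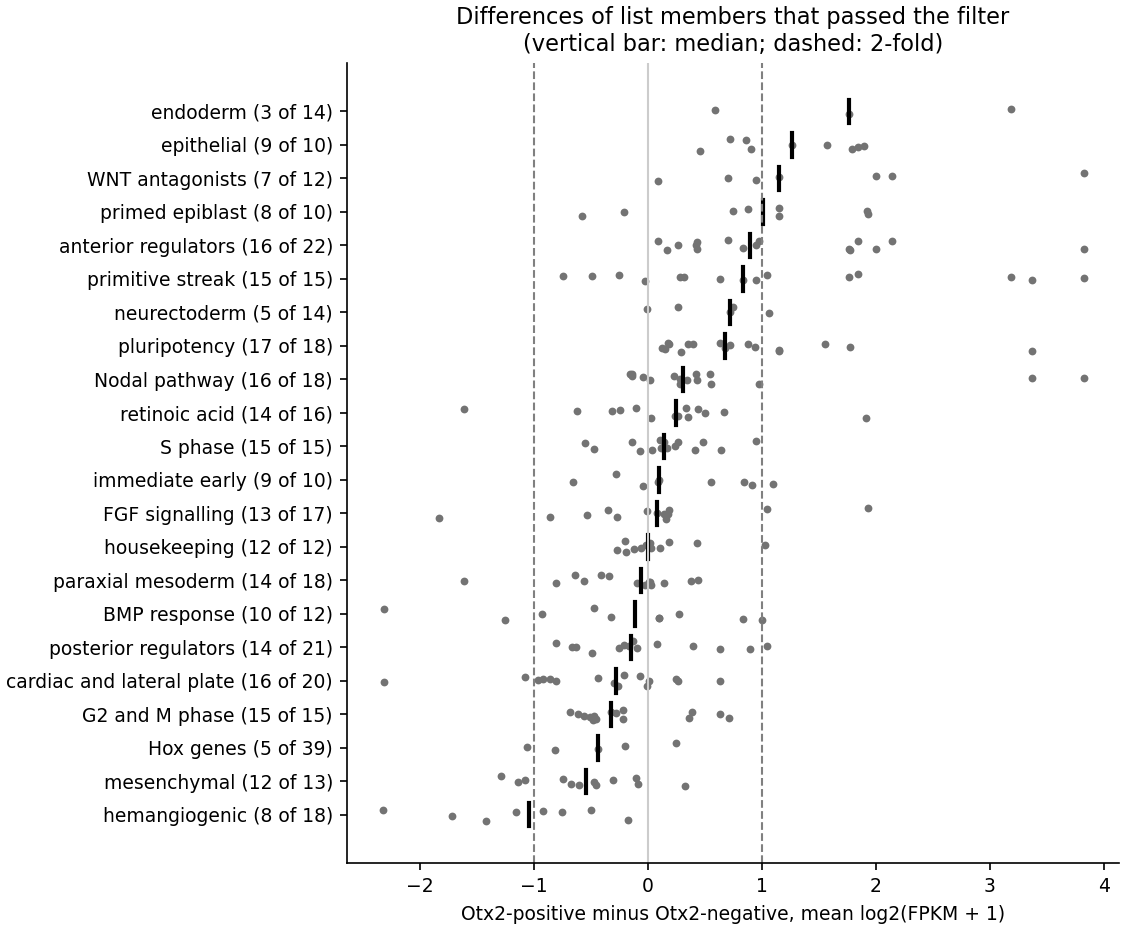
Difference in mean log2(FPKM + 1), positive minus negative cells, of each list member that passed the filter (points), with the list median (black bar), the number passing out of the list's size, and dashed lines at 2-fold. The epithelial and anterior lists lie to the right, with medians of 1.26 and 0.89, the hemangiogenic list lies to the left at -1.04, and the housekeeping list centres on 0. Members that passed the filter only through 1 side are included.

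Most markers of other tissues that transcribe Otx2 did not pass the filter, but some that passed were higher in Otx2-positive cells. Of 14 endoderm genes 3 passed, Trh, Foxa2 and Cxcr4 (0.59), with a median of 1.76. Trh and Foxa2 were 2-fold or more higher (against 3.2% of all genes), Foxa2 only through the positive side. Sox17 was detected in 1 positive cell, Ttr in 1, and Afp and Hnf4a in none. Of 14 neurectoderm genes 5 passed, 4 with differences above 0 and 1 below (median 0.73). Zic2 was detected in 14 and 6 cells (0.74), Sox2 in 12 and 6 (0.73), Sox1 in 1 and 1, Pax6 in 3 and 2, and En1, En2 and Pax2 in none.

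Other genes with large differences fell outside these lists. Pmp22, which encodes a myelin and junction membrane protein, was detected in 12 positive and 23 negative cells, at medians of 5.31 and 69.9 FPKM (difference -3.05). Rgs5, a regulator of G protein signalling, was found in 10 and 19 cells (-2.36), the calcium-binding annexin gene Anxa2 in 4 and 15 (-2.31), and Ppic, a cyclophilin gene, in 19 and 24 (-2.10). Rpl30 was listed at 0 in 17 positive and 11 negative cells and reached 100 FPKM in the 7 and 13 cells where it was detected (-1.93). Ribosomal protein genes have many near-identical copies, among which reads can be divided, so this value is uncertain. Ly6e (2.15, but 0.86 at an Otx2 threshold of 10 FPKM), Rdm1 (2.37), Cthrc1 (2.08), Rnf141 (16 and 3 cells, 2.06), Samd3 (2.09), Iqcc (2.02) and 5730469M10Rik (2.21) completed the 15 highest. The 15 lowest also held 2700099C18Rik (-2.21), Ano10 (-2.17), Vgll4 (-2.08), Map2k3 (-1.95), Gadd45g (-1.84, but -0.91 at that threshold), Dnajb11 (-1.80) and A930005H10Rik (-1.80).

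The named genes were followed in cells with label numbers up to 48 and above 48, which the labels do not explain. All 15 highest and all 15 lowest genes kept their sign in both ranges, though each range was part of the cells that chose them. Past 2-fold in both ranges were 15 of the 15 highest and 10 of the 15 lowest. Dnajb11 (-3.12 and -0.42), 2700099C18Rik (-3.49 and -0.88), Anxa2 (-0.89 and -3.84), Rpl30 (-0.85 and -3.13) and Ppic (-0.96 and -3.40) were not.

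**Figure D5:**
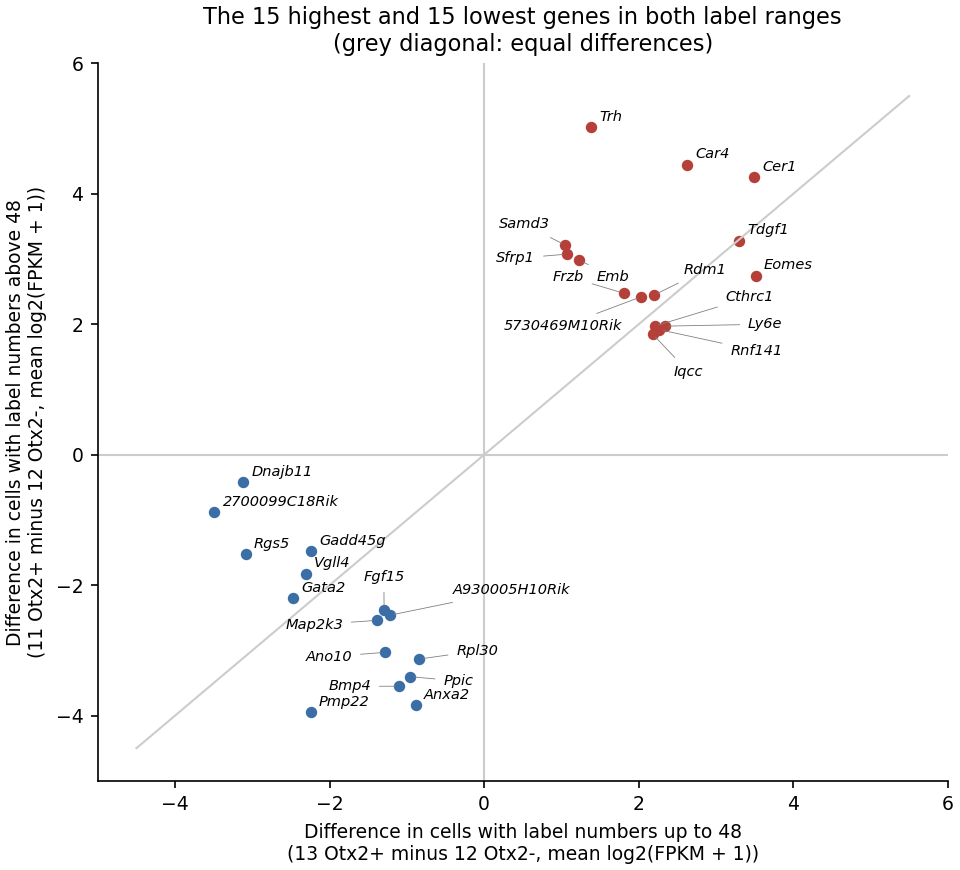
Differences in mean log2(FPKM + 1), positive minus negative cells, in cells with label numbers up to 48 (horizontal axis) and above 48 (vertical axis), for the 15 highest (red) and 15 lowest genes (blue), with equal differences on the grey diagonal. Each gene lies on the same side of 0 in both ranges, while Trh (1.38 and 5.02) and Anxa2 (-0.89 and -3.84) lie far from the diagonal.

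Within the Otx2-positive cells, few list members followed the amount of Otx2. Of 119 list members detected in at least 12 of these 24 cells, 6 had a Spearman correlation with Otx2 above 0.4, none was below -0.4, and the median was 0.04. The 6 were Shisa2 (0.59), Sall4 (0.48), Ung (0.44), Actb (0.42), Eomes (0.41) and Hprt (0.41). Actb and Hprt are from the housekeeping list. The correlation was not computed for genes outside the lists, so no share of all genes stands beside these 6. Otx2 had a correlation of 0.27 with the number of genes detected per cell.

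Bicoid-class homeodomains bind the sequence TAATCC, so promoters were searched for it on both strands (reverse complement GGATTA), in RefSeq windows of 250 bases before to 50 bases after each start on GRCm38.p6. It was present in 7.06% of 32851 promoters of that length. At least 1 promoter held it for 6.60% of the 7609 compared genes with a window, for 22 of 236 genes 2-fold or more higher (9.32%) and for 10 of 136 lower (7.35%). None of the 10 highest and 11 lowest named genes with a window held it. For 3 of the 57 named genes with a window, a stretch with a match before the start is shown. The motif is in capitals, and each stretch reads 5′ to 3′ on the gene's strand. These 3 are not a full count of matches among the 57 genes. A match is a description of the letters and not a site of binding.
Otx2, chr14:48665285-48665350, minus strand: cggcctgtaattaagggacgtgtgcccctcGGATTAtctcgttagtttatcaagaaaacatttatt
Isl1, chr13:116309830-116309895, minus strand: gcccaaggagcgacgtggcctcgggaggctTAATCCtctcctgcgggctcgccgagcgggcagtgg
Sp8, chr12:118846258-118846323, plus strand: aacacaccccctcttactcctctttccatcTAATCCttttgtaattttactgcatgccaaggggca
Of these, 1 of the 4 promoters of Otx2 held the motif in reverse complement. Isl1 was lower in Otx2-positive cells (-1.08), and Sp8 was detected in 9 cells on each side (0.08).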

How the data were processed

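RNA of 48 single cells was measured, 1 column of the deposited table per cell. The table names no unit; its values were treated as FPKM because Cufflinks 2.2.1.0 appears, per the submitters' processing notes, beside CASAVA 1.8.2, TopHat 0.7 and mm10, without roles. For annotation and read filters nothing is stated. The 23746 rows gave 23284 symbols after rows of the same symbol were summed. The computation used Python 3.11.15, numpy 2.4.6, pandas 2.3.3 and scipy 1.17.1, and was tested on simulated data. Detection meant 1 FPKM, the pseudocount was 1 FPKM, and 779 short RNA symbols were identified. Coordinates are from GENCODE M21 (GRCm38). No cell was removed and no doublet caller was run.

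Named genes were the 15 largest differences each way among genes detected in at least 12 cells that are not short RNAs, all anterior and posterior regulators detected in at least 5 cells, the 2 largest of each other list, Mesp1 and the 5 genes most like Otx2; others were named after their values were seen. A few genes under this rule are not reported. The members and the 22 lists (313 genes) were chosen with earlier results of these data known. With 1 group and no named cultures, no p-value was computed. Alternatives varied the Otx2 threshold, pseudocount, scaling, cells, filter, fold and a covariate.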

Additional observations from a re-analysis of the deposited data

How the results depend on the processing

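The numbers of genes 2-fold or more higher and lower in Otx2-positive cells (339 and 198), of anterior regulators higher (6) and of posterior regulators lower (0) moved by over 1.5 times in some settings. A pseudocount of 0.1 FPKM gave 1209, 822, 10 and 2. Rescaling each cell to 1 fixed total without short RNAs gave 507 and 328 genes. Cells with label numbers up to 48 gave 630 and 480 genes and 1 posterior regulator lower, and those above 48 gave 848, 648 and 1. A 4-fold size left 15 and 12 genes and 3 anterior regulators. Without the 11 cells over 50% short RNA, added after seeing the data, 456 and 370 genes and 1 posterior regulator were counted. With fewer cells per side, differences between means scatter more. The label ranges also compared fewer genes, 9349 up to 48 and 8517 above 48. The cause of the shifts was not tested. Other Otx2 thresholds (0.1 FPKM, 10 FPKM, or 10 FPKM against cells listed at 0), removal of 7 cells with few genes, regression on detected genes and other filters moved none of the counts by over 1.5 times, with 261 to 461 genes higher and 156 to 273 lower. Of 50 named genes past 2-fold, 32 stayed past it in all 10 settings that kept the size rule and none reversed; Vim (lowest size -0.03), Aldh1a2 (-0.35), Fgf8 (0.48) and Hprt (0.14) were among those that did not. No paired analysis was possible because there is 1 group. With 24 cells a side, a gene in no cell can be in up to 12.5% by a limit of 3 counts (14.2% by the exact interval).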

Other observations

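No listed cell cycle gene was past the size rule, by which 3.2% of all compared genes were higher and 1.87% lower. Counts of 0 among 15 genes are near these shares. All 15 S phase genes passed the filter, with 11 differences above 0 and 4 below (median 0.14). Mcm5, a subunit of the replicative helicase, had the largest difference (0.95, medians 64.2 and 33.3 FPKM). All 15 G2 and M phase genes passed, with 4 differences above 0 and 11 below (median -0.32). Ccnb1, which encodes cyclin B1, was at 0.71 and the mitotic kinase gene Aurkb at -0.68. Of 10 immediate early genes 9 passed, Egr1 was higher (20 and 16 cells, 1.10; under 2-fold in 3 of 10 other settings) and Fos was at 0.92. Of 12 housekeeping genes all passed with a median of 0.00, and Hprt alone was past 2-fold (19 and 12 cells, 1.03; under it in 4 of 10 other settings). Of 18 paraxial mesoderm genes 14 passed and only Aldh1a2 was past 2-fold, the somite regulators Tcf15 (-0.64) and Meox1 (-0.56) not reaching it.

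At the other end of the rank order from Eomes, the genes with the lowest Spearman correlation with Otx2 over the 48 cells were Cep350, which encodes a centrosomal protein, at -0.52, Pmp22 at -0.50, St7l and Ccdc25 at -0.49 each, and Bmp4 at -0.48.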
